A study of Arabidopsis thaliana with 11 samples.

Results

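THI2.1, JAL23 and AT1G54020 are 3 Arabidopsis genes that were higher in inflorescences of an nga quadruple mutant and of plants with a microRNA against the NGATHA genes than in those labelled wild type. They were chosen with their values on these arrays known, as the loci AT1G72260 (THI2.1), AT2G39330 (JAL23) and AT1G54020, and are 3 of the 13286 genes with a probe set of a single gene. Each has 1 probe set, and all 3 were among the 17910 kept for testing out of 22746 that are not controls. The differences between genotypes that chose them are therefore given with their errors as a description, with no test.

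Expression was measured on 11 Affymetrix ATH1 arrays, single-colour arrays on which several short probes make up a probe set. All plants were of the Ler ecotype and 30 days old, and the tissue was inflorescence with flowers of stage 12 and younger. Of these, 7 arrays carry the label wild type, 2 are of the quadruple mutant with the alleles nga1-1, nga2-1, nga3-1 and nga4-1, and 2 are of plants expressing an artificial microRNA against all 4 NGATHA genes (35S:miR-NGA, here amiR-NGA). The 35S promoter is active in most tissues of the plant. The labels do not say how many transgenic lines or plants gave each array, nor whether replicates were separate plantings, so errors and p-values cover only the spread between these arrays. A note of long days stands on wild-type replicates 2, 3 and 4, and no day length is stated for the others.

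NGATHA proteins are transcription factors with a B3 DNA-binding domain, and together they direct the formation of the style and stigma. Jasmonate is a lipid-derived hormone made from plastid fatty acids. It releases MYC and related transcription factors from JAZ repressors, induces defence proteins after wounding or attack, and is required in the flower for stamen and petal maturation. THI2.1 encodes a thionin, a small cysteine-rich antimicrobial protein whose transcript is known to be induced by methyl jasmonate and to be abundant in flowers. JAL23 encodes a jacalin-related lectin, a carbohydrate-binding protein of a family that associates with the beta-glucosidase PYK10. AT1G54020 encodes a protein of the GDSL lipase family. No plant was treated with jasmonate and no hormone was measured, so the jasmonate link of the 3 genes is background and was not tested here.

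Some facts of the whole series bear on every value. NGA3 and NGA4 were lower on each of the 4 nga-deficient arrays (quadruple mutant and amiR-NGA together) than on any array labelled wild type. NGA2 was lower in the quadruple mutant (4.68 and 4.77) but not in amiR-NGA, where 5.34 and 5.47 lay within the 5.19 to 5.52 of the controls (log2 difference 0.06, SE 0.12). NGA1 went against the labels: it lay between 5.60 and 5.99 (log2) on wild-type replicates 1 to 4, below the 6.50 and 6.95 of the quadruple mutant, and at 10.50 or more on wild-type replicates 5 to 7. The controls are therefore called the arrays labelled wild type. On wild-type replicates 1 and 2 and quadruple mutant replicate 1 the actin control probe sets differed by 2.05 to 2.11 (log2) between the 3-prime and the 5-prime end, a sign of RNA quality, against 1.09 to 1.31 on the other 8 arrays. Whole inflorescences were measured, so more cells that express a gene and more RNA per cell cannot be told apart.

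THI2.1 was bright in every group and varied widely in each of the larger ones. On wild-type replicates 1 to 7 it measured 6.75, 6.85, 7.32, 7.71, 8.11, 7.89 and 8.80 (log2 expression). Quadruple mutant replicates 1 and 2 gave 10.81 and 8.81, and amiR-NGA replicates 1 and 2 gave 9.17 and 8.85. The 3 wild-type arrays with high NGA1 (replicates 5 to 7) carried more THI2.1 than the other 4, and quadruple mutant replicate 1 stood well above all others. The groups met without overlap: the lowest nga-deficient array exceeded the highest array labelled wild type by 0.0034. THI2.1 averaged 7.63 ± 0.73 (SD, n = 7) over the controls and 9.41 ± 0.95 (n = 4) in the nga-deficient samples, a log2 difference of 1.78 (SE 0.43), or 3.42-fold.

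JAL23 was the most variable of the 3 genes among the controls and the most uniform among the nga-deficient arrays. On wild-type replicates 1 to 7 it measured 3.65, 4.42, 6.17, 7.19, 4.84, 5.87 and 5.74 (log2 expression). Its values were 7.79 and 7.77 for quadruple mutant replicates 1 and 2, and 7.25 and 7.53 for amiR-NGA replicates 1 and 2. The controls thus ran from near the floor of the values to a level 0.063 below the lowest nga-deficient array, while the 4 nga-deficient arrays lay close together. JAL23 averaged 5.41 ± 1.19 (SD, n = 7) and 7.59 ± 0.25 (n = 4), a log2 difference of 2.18 (SE 0.52), or 4.52-fold.

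AT1G54020 behaved differently in the genotypes. On wild-type replicates 1 to 7 it measured 3.51, 3.63, 4.22, 3.95, 3.93, 3.79 and 4.03 (log2 expression), so that 2 of 7 reached the value of 4 used as the filter on low values. It reached 7.74 and 7.13 in quadruple mutant replicates 1 and 2, and 4.67 and 4.65 in amiR-NGA replicates 1 and 2. The controls lay near the floor of the values, amiR-NGA lay just above them and the quadruple mutant far above both, with 0.43 between the highest control and the lowest nga-deficient array. It was kept for testing because 6 arrays reached 4, which all 4 nga-deficient arrays did. The averages were 3.87 ± 0.24 (SD, n = 7) and 6.05 ± 1.62 (n = 4), a log2 difference of 2.18 (SE 0.51), but the mean of the 4 arrays describes neither genotype. Values near the floor are compressed, so this difference is not a measure of the change in RNA level.

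**Figure D1:**
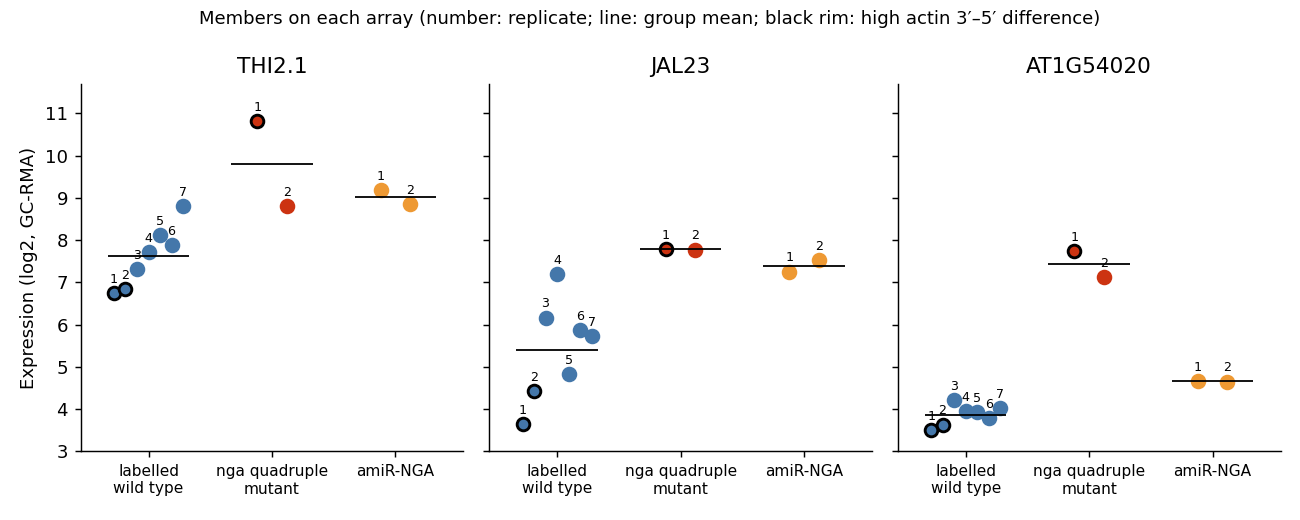
Log2 expression (GC-RMA) of THI2.1, JAL23 and AT1G54020 on each array, by group, with the replicate number above each point and a line at each group mean; points with a black rim are the 3 arrays of high actin difference. THI2.1 and JAL23 spread widely among the 7 arrays labelled wild type and meet the nga-deficient arrays without overlap, while AT1G54020 lies near the floor on the controls and above 7 only in the quadruple mutant.

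All 4 nga-deficient arrays lay above all 7 arrays labelled wild type for 3 of 3 genes. Over all kept probe sets this held for 3.06%, and since the genes were chosen from this contrast nothing is read from their count. Among the 17910 differences of this contrast, AT1G54020 was the rise of rank 3, JAL23 of rank 4 and THI2.1 of rank 10.

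The genotypes were then described apart, against the same 7 controls. In the quadruple mutant the log2 difference was 2.18 (SE 0.54) for THI2.1, 2.37 (SE 0.69) for JAL23 and 3.57 (SE 0.20) for AT1G54020, that is 4.52-fold for THI2.1 and 5.17-fold for JAL23. In amiR-NGA it was 1.38 (SE 0.54) for THI2.1, 1.98 (SE 0.69) for JAL23 and 0.79 (SE 0.20) for AT1G54020, and that of JAL23 is 3.95-fold. No fold is given for AT1G54020, whose controls lie near the floor. JAL23 had 1 control, wild-type replicate 1, below 4 (3.65), so its folds here and above describe the values and not the change in RNA level. JAL23 thus differed from the controls by similar amounts in both genotypes, and the quadruple mutant exceeded amiR-NGA by 0.39 (SE 0.86). This SE comes from a spread shared by the 3 groups, which for JAL23 is mainly that of the controls (SD 1.19). Both quadruple mutant arrays (7.79 and 7.77) lay above both amiR-NGA arrays (7.25 and 7.53). For THI2.1 the gap between the genotypes was 0.80 (SE 0.67), and it rested on quadruple mutant replicate 1: without that array it was -0.20. AT1G54020 was 2.78 (SE 0.25) higher in the quadruple mutant, and both quadruple mutant arrays were more than 2 log2 units above both amiR-NGA arrays. Both genotype comparisons share their controls, so their likeness for JAL23 and THI2.1 is in part that of the same 7 arrays.

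The arrays of high actin difference held the extremes of all 3 genes. The lowest and the next lowest control values of THI2.1, JAL23 and AT1G54020 came from wild-type replicates 1 and 2, and the highest value of each gene came from quadruple mutant replicate 1. Without these 3 arrays the nga-deficient difference was 0.98 (SE 0.28) for THI2.1, 1.56 (SE 0.42) for JAL23 and 1.50 (SE 0.49) for AT1G54020, on the log2 scale. THI2.1 changed most. Its quadruple mutant difference fell from 2.18 to 0.84 (SE 0.44), and on the 8 remaining arrays the controls reached 8.80 while the nga-deficient arrays ran from 8.81 to 9.17. AT1G54020 kept a difference of 3.15 (SE 0.16) between quadruple mutant replicate 2 and the 5 remaining controls, where the lone quadruple mutant array is assumed to vary like the other groups. THI2.1 also differed with the controls taken: its nga-deficient difference was 2.25 without wild-type replicates 5 to 7 and 1.14 without wild-type replicates 1 to 4. The matching values were 2.23 and 2.11 for JAL23 and 2.22 and 2.13 for AT1G54020. JAL23 differed with the controls in another way: its nga-deficient difference was 1.66 (SE 0.54) against the controls with the long-days note and 2.56 (SE 0.43) against those without, and in amiR-NGA 1.46 and 2.37. For THI2.1 the nga-deficient values by the note were 2.12 and 1.52, and for AT1G54020 2.11 and 2.23. The controls without the note include wild-type replicates 5 to 7, so this split overlaps with the one by replicate.

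**Figure D2:**
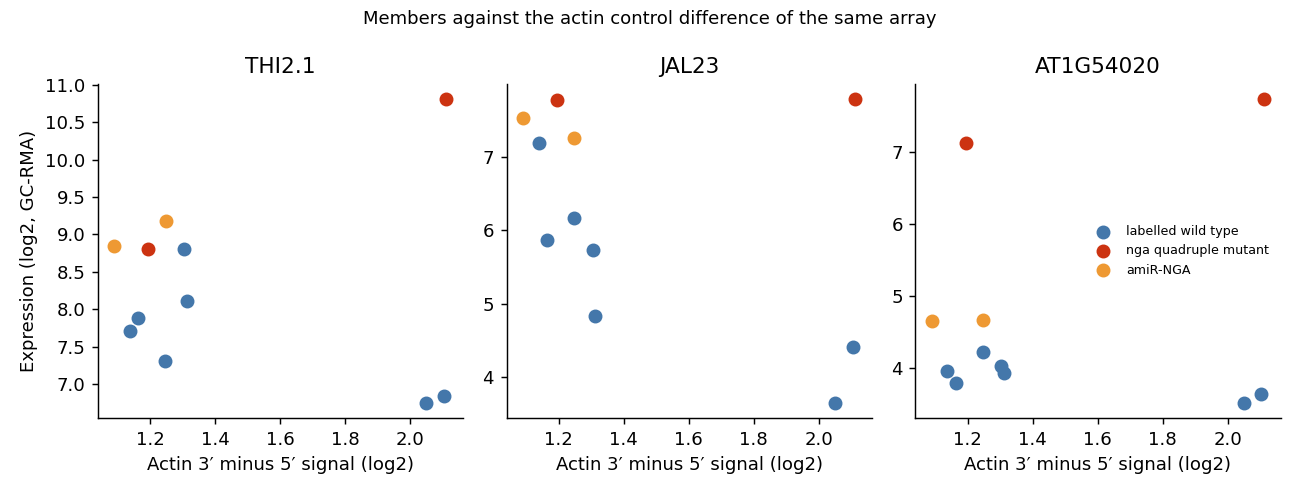
Log2 expression of each gene against the difference of the actin control signal between its 3-prime and 5-prime ends (log2) on the same array, with colours for the groups and a y axis of its own for each gene. The 2 controls at the right hold the lowest control values of every gene, and quadruple mutant replicate 1 at the upper right holds the highest value of every gene.

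The spread among the controls is given as a description, since the genes were chosen with these values known. Over the 7 arrays labelled wild type the SD of JAL23 (1.19) exceeded that of 99.9% of kept probe sets, and the SD of THI2.1 (0.73) exceeded that of 98.6%, against a median SD of 0.24. From the lowest to the highest control, JAL23 spanned 3.54 log2 units, or 11.6-fold, and THI2.1 2.05, or 4.15-fold. The span of JAL23 starts at 3.65 on wild-type replicate 1, near the floor, where values are compressed. AT1G54020, near the floor, had an SD larger than 51.0% of kept probe sets. The difference between nga-deficient arrays and controls was thus smaller than the range of the controls for THI2.1 and JAL23, and larger for AT1G54020, whose controls spanned 0.70.

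**Figure D3:**
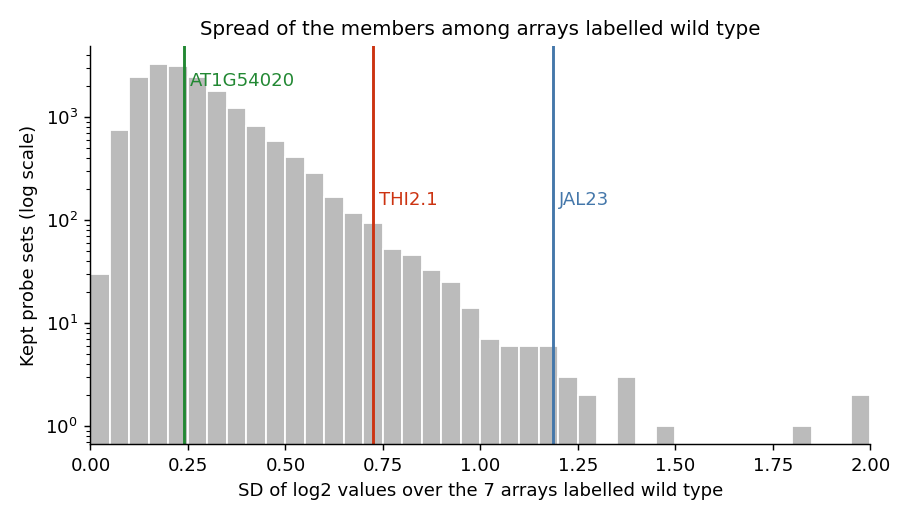
Number of kept probe sets (log scale) by the SD of their log2 values over the 7 arrays labelled wild type, in bins of 0.05, with values above 2 placed in the last bin; lines mark the 3 genes. JAL23 (1.19) and THI2.1 (0.73) lie in the upper tail and AT1G54020 (0.24) at the centre.

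Whether the long-days note went with this spread was examined within the controls, a split that was not used to choose the genes. Their values on these arrays were known, so the p-values for the 3 genes are given as a description. JAL23 averaged 5.93 ± 1.40 (SD, n = 3) on the arrays with the note and 5.02 ± 1.02 (n = 4) on those without, a log2 difference of 0.90 (95% interval -0.67 to 2.48, limma adjusted p = 1.00). THI2.1 averaged 7.29 ± 0.43 (n = 3) and 7.89 ± 0.85 (n = 4), a log2 difference of -0.59 (95% interval -1.57 to 0.38, limma adjusted p = 1.00). The arrays without the note include wild-type replicates 5 to 7, on which NGA1 was high. All arrays with the note had low NGA1 (log2 difference of NGA1 by the note -3.60), so note and NGA1 level cannot be told apart here. For AT1G54020 the log2 difference was 0.12 (95% interval -0.31 to 0.54, limma adjusted p = 1.00), and it turned to -0.023 without wild-type replicate 3. No probe set of 17910 passed in this comparison (0% called), and 289, or 1.61%, had an unadjusted limma p under 0.05. The intervals for JAL23 and THI2.1 do not leave out differences of more than 2-fold.

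The 3 genes were next set against each other over the 7 controls alone. They were chosen with these values known, so the p-values are again a description. JAL23 and AT1G54020 gave a Pearson r of 0.73 (exact permutation p = 0.062, adjusted over the 3 pairs 0.19) and a Spearman rho of 0.75 (exact permutation p = 0.066, adjusted 0.20), and r was 0.73 without the 2 arrays farthest from the median of JAL23. THI2.1 and AT1G54020 gave an r of 0.57 (exact permutation p = 0.18, adjusted 0.27) and a rho of 0.54 (exact permutation p = 0.24, adjusted 0.35), with r at 0.23 without the 2 farthest arrays. THI2.1 and JAL23 gave an r of 0.48 (exact permutation p = 0.28, adjusted 0.28) and a rho of 0.36 (exact permutation p = 0.44, adjusted 0.44), with r at 0.28 without the 2 farthest arrays. None of the 3 pairs passed, and wild-type replicates 1 and 2, low for every gene, are among the points of each. AT1G54020 was below 4 on 5 of these arrays, where differences between values mean little.

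Genes of jasmonate synthesis were looked at for a change in the same direction. Of 79 entries in lists of jasmonate synthesis, signalling, response and turnover, 13 had a probe set naming a single gene and 11 of these were kept, THI2.1 not counted, so the pathway is covered poorly. In the nga-deficient comparison 0 of 11 passed the limma threshold (adjusted p under 0.05), against 4.42% of all kept probe sets (1.33% higher and 3.09% lower), and 3 of 11 had an unadjusted p under 0.05, against 22.4%. Their log2 differences had a median of 0.21, with 10 above and 1 below 0, beside a median of -0.02 over all kept probe sets. The share of all kept probe sets above 0 was not counted. Those above 0 include differences as small as 0.02 (THI2.2), 0.03 (MYC4 and PDF1.2) and 0.09 (PDF1.2b), so no common rise is read from the signs.

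In the pooled nga-deficient comparison JMT came nearest to the threshold, followed by OPCL1 and BSMT1 with nearly the same adjusted p. JMT, the methyltransferase that makes methyl jasmonate, measured 5.78, 7.39, 7.11, 7.05, 7.08, 7.14 and 7.38 on wild-type replicates 1 to 7, 8.19 and 7.66 in the quadruple mutant and 7.90 and 8.09 in amiR-NGA. All 4 nga-deficient arrays were above all 7 controls, and wild-type replicate 1 was far below the other controls. The log2 difference was 0.97 (SE 0.26, limma adjusted p = 0.052). Without wild-type replicate 1 it was 0.77 and passed (limma adjusted p = 0.0072), and it also passed without wild-type replicate 2 (1.03, adjusted p = 0.049), when the 3 arrays of high actin difference were left out (0.73, adjusted p = 0.012) and with array weights or median centring. OPCL1, a CoA ligase that prepares jasmonate precursors for beta-oxidation, averaged 5.95 ± 0.35 (SD, n = 7) on the controls and had a log2 difference of 0.57 (SE 0.18, limma adjusted p = 0.086). It passed without wild-type replicate 7 (0.69, adjusted p = 0.016), the control on which it was highest at 6.65. It also passed with array weights (0.47, adjusted p = 0.0499) and with the replicate block (0.70, adjusted p = 0.043). JMT and OPCL1 each failed the threshold in all other alternatives of the nga-deficient comparison. Array weights called 2977 of the 17910 kept probe sets and the replicate block 1932, against 792 with the settings used above. DGL, a plastid lipase, was not kept (3.84 ± 0.23, SD, n = 7, on the controls).

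The signalling and response genes had differences of either sign. MYC4 and MYC3, transcription factors that carry out the jasmonate response, had nga-deficient log2 differences of 0.03 (SE 0.16, limma adjusted p = 0.94) and -0.37 (SE 0.23, adjusted p = 0.37). In the quadruple mutant MYC3 had a log2 difference of -0.81 (SE 0.23, limma adjusted p = 0.073), which passed without wild-type replicate 2 (-0.91, adjusted p = 0.019). The defensin PDF1.2, a standard marker of the jasmonate and ethylene response, lay between 4.31 and 4.69 on all arrays (log2 difference 0.03, limma adjusted p = 0.88). These values are close to the filter value of 4, near the floor, so a fall could hardly show. THI2.2, the other gene found by a thionin name, averaged 4.84 ± 0.50 (SD, n = 7) on the controls and had a log2 difference of 0.02 (SE 0.28, limma adjusted p = 0.98). BSMT1, a methyltransferase that forms methyl benzoate and methyl salicylate, had a log2 difference of 0.78 (SE 0.25, limma adjusted p = 0.087), with 1.01 in the quadruple mutant (adjusted p = 0.086) and 0.55 in amiR-NGA (adjusted p = 0.48).

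Of the turnover list, entered for oxygenases that inactivate jasmonate, AT5G05600 differed most between arrays. It ran from 4.96 to 5.79 on the controls and measured 7.54 and 5.74 in the quadruple mutant and 5.39 and 5.44 in amiR-NGA. Quadruple mutant replicate 1, the array on which THI2.1 was highest, stood alone. Its log2 difference in the quadruple mutant was 1.31 (SE 0.36, limma adjusted p = 0.064), and it rested on replicate 1, since the 5.74 of replicate 2 lay within the range of the controls. Without replicate 2 the fit gave 2.21 (limma adjusted p = 0.0023) for replicate 1 alone, whose spread is then assumed to be that of the other groups. JRG21 and AT2G38240 had nga-deficient log2 differences of 0.24 and 0.21 (limma adjusted p = 0.50 and 0.71).

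No jasmonate gene passed in either genotype. In the quadruple mutant 0 of 11 passed the limma threshold, against 4.17% of kept probe sets (1.94% higher and 2.23% lower), and 5 had an unadjusted p under 0.05, against 21.3%. In amiR-NGA 0 of 11 passed, against 0.932% (0.117% higher and 0.815% lower), and 1 had an unadjusted p under 0.05, against 12.6%. Between the genotypes 0 of 11 passed, against 0.134% (0.101% higher and 0.0335% lower), and 2 had an unadjusted p under 0.05, against 7.21%. With 1 array left out, single genes passed. JMT did so without wild-type replicate 1 in the quadruple mutant (0.73, limma adjusted p = 0.032) and in amiR-NGA (0.80, adjusted p = 0.042), and OPCL1 without wild-type replicate 7 in the quadruple mutant (0.76, adjusted p = 0.036). Without quadruple mutant replicate 2, AT5G05600 passed between the genotypes (2.12, limma adjusted p = 0.013), again on replicate 1 alone.

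The listed relatives of JAL23 and AT1G54020 were examined for genes that moved with them. JAL33 and JAL34, the other kept genes with a JAL name, had nga-deficient log2 differences of -0.05 (SE 0.14, limma adjusted p = 0.87) and 0.04 (SE 0.11, adjusted p = 0.85). Lectins of the family without such a name were not listed. JAL22, the close neighbour of JAL23 on the chromosome, was below the filter, at 3.94 or lower on every array. PYK10, the beta-glucosidase that such lectins bind in roots, averaged 4.16 ± 0.13 (SD, n = 7) on the controls and had a log2 difference of -0.04 (limma adjusted p = 0.85). JAL34 (3.96 to 4.39 over all arrays) and PYK10 lay near the floor, where values are compressed, so their small differences do not show an unchanged RNA level. Of the 17 loci entered as GDSL lipases 4 were measured, and 0 of 4 passed the limma threshold in the nga-deficient comparison, against 4.42% of kept probe sets, and 1 had an unadjusted p under 0.05, against 22.4%. This locus, AT1G75890, had a log2 difference of -0.55 (SE 0.19, limma adjusted p = 0.11), and the others had differences from 0.22 to 0.37. The 4 were EXL1, EXL2, EXL3 and EXL5 (AT1G75880 to AT1G75920), which lie close in locus number. In the quadruple mutant 0 of 4 passed, against 4.17%, and 2 had an unadjusted limma p under 0.05, against 21.3%. These were EXL1 (log2 difference 0.71) and EXL2 (-0.65), while EXL3 and EXL5 had 0.54 and 0.57. In amiR-NGA 0 of 4 passed, against 0.932%, and the median was -0.05, beside 0.55 in the quadruple mutant. No other GDSL gene of the list was measured, so these values do not describe the family.

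**Figure D4:**
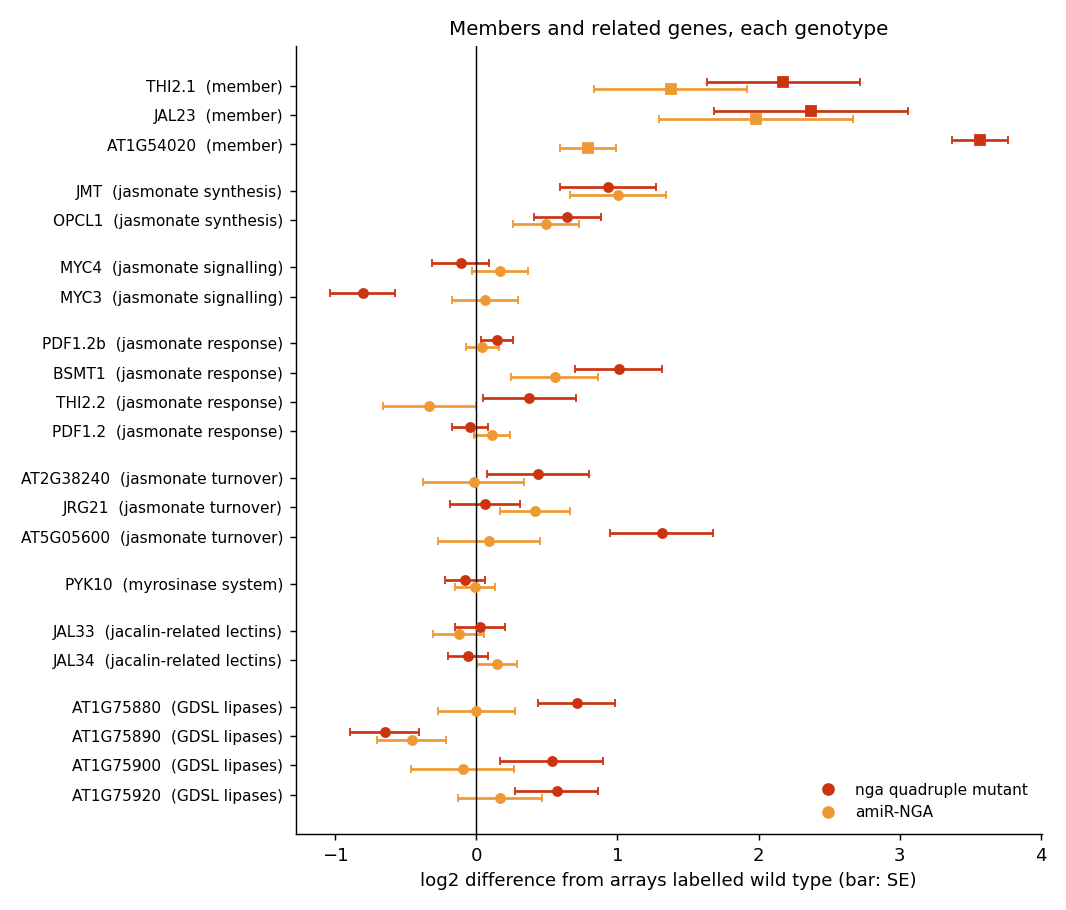
Log2 difference of each genotype from the 7 arrays labelled wild type, with SE as bars, for THI2.1, JAL23 and AT1G54020 (squares) and for the kept genes of the jasmonate, myrosinase, jacalin-related lectin and GDSL lipase lists (circles). JMT and OPCL1 lie to the right of 0 in both genotypes without passing the limma threshold, and the related lectins and PYK10 lie close to 0. JAL34, PYK10 and PDF1.2 were measured near the floor, where values are compressed.

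Neighbouring loci were compared next, in the order of the RefSeq gene table. AT2G39320 and JAL22, which lie next to JAL23 on one side, were at 4.04 or lower on every array. On the other side AT2G39360, 4 loci away, had a log2 difference of -0.07 (limma adjusted p = 0.74). AT2G39390, 8 loci away, had one of 0.50 (SE 0.20, limma adjusted p = 0.17), with 0.42 in the quadruple mutant and 0.58 in amiR-NGA. Next to THI2.1, AT1G72250 and AT1G72270 had log2 differences of 0.13 and 0.02 (limma adjusted p = 0.74 and 0.94). AT1G72240, 2 loci away, rose by 0.54 (SE 0.13, limma adjusted p = 0.033). This call ended without wild-type replicate 3 or 5 and without any 1 of the 4 nga-deficient arrays, and the adjusted p ran from 0.016 to 0.17 over the alternatives. AT1G72290, 4 loci away, had a log2 difference of -0.97 (SE 0.27, limma adjusted p = 0.059).

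The locus AT1G54050, 3 away from AT1G54020, was higher in the quadruple mutant. It ran from 5.95 to 6.81 on the controls and measured 7.68 and 7.52 in the quadruple mutant and 6.77 and 7.10 in amiR-NGA. The log2 difference was 1.08 (SE 0.20, limma adjusted p = 0.014) in the quadruple mutant and 0.42 (SE 0.20, adjusted p = 0.40) in amiR-NGA, and the test of the genotypes against each other gave 0.66 (limma adjusted p = 0.66). The quadruple mutant call ended without quadruple mutant replicate 1, and over the alternatives its adjusted p ran from 0.0054 to 0.27. AT1G54070, 5 loci away, had a log2 difference of 0.95 in the quadruple mutant (limma adjusted p = 0.37), with 6.96 on replicate 1 and 4.67 on replicate 2. On the other side AT1G53970 and AT1G53945 were at 3.65 or lower on every array.

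**Figure D5:**
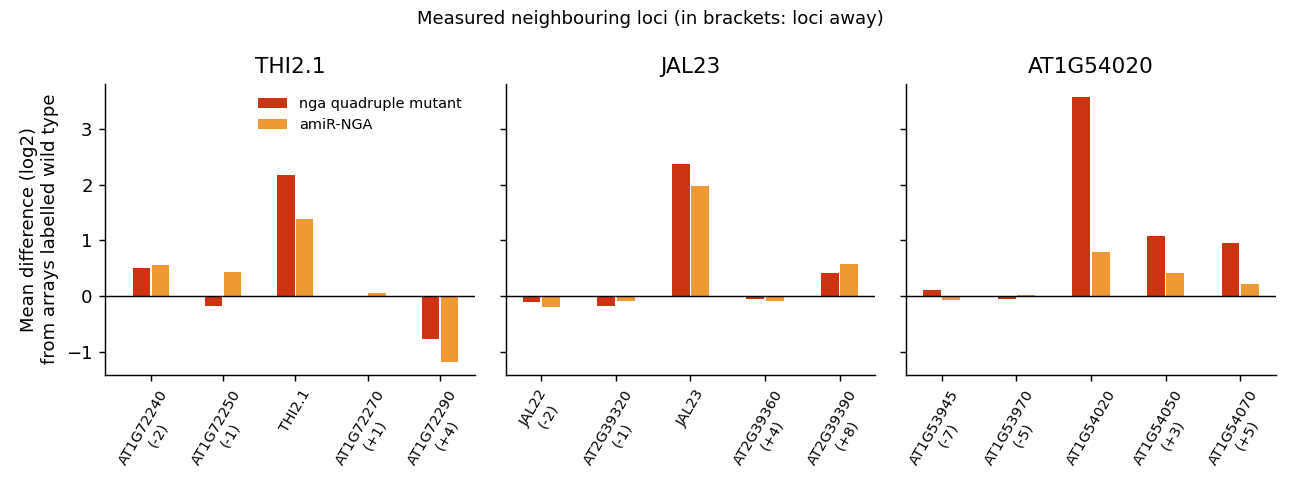
Mean log2 difference of each genotype from the 7 arrays labelled wild type for the 3 genes and for the nearest loci on either side with a probe set of a single gene, with the number of loci away in brackets. The bars of THI2.1 and JAL23 stand far above those of their neighbours, while 2 loci beyond AT1G54020 have positive differences in the quadruple mutant, 1 of them past the limma threshold.

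The genes most like each of the 3 were found by Pearson r over the 11 arrays, among 10100 other kept probe sets of a single gene, as a description with no test. For AT1G54020 the highest were AT1G33360 (r = 0.99), AT1G06640 (0.97), RSU1 (0.97), ATB2 (0.96) and AT1G24030 (0.96). All 5 were higher on both quadruple mutant arrays than on any other, with log2 differences from the controls of 1.42 to 3.24 in the quadruple mutant and 0.04 to 0.43 in amiR-NGA. AT1G54020 itself was above 7 only on the quadruple mutant arrays, so this pattern follows from picking genes by r. AT1G06640 measured 4.27 to 5.57 on the controls, 8.45 and 8.29 in the quadruple mutant and 5.34 and 5.78 in amiR-NGA. For JAL23 the highest were bZIP44 (0.96), a transcription factor, AT4G25890 (0.96), AT3G13650 (0.95), AT5G66420 (0.95) and AT3G16700 (0.94). bZIP44 was lowest on wild-type replicate 1 at 8.85 and highest among the controls on replicate 4 at 10.43, the arrays on which JAL23 was lowest and highest among the controls. This likeness too follows in part from the choice by r. For THI2.1 the highest were AT1G71780 (0.97), AT3G05280 (0.96), AT3G62400 (0.95), AT2G31390 (0.94) and TUB1 (0.93), a beta-tubulin gene.

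Likeness was also taken after the mean of each group was subtracted, so that differences between genotypes play no part. The highest were AT1G16750 (0.96), AT3G05280 (0.94) and AT1G71780 (0.94) for THI2.1, and AT3G16700 (0.98), CHR40 (0.96) and AT5G62710 (0.96) for JAL23. AT3G16700 was thus like JAL23 with and without the group means, as AT3G05280 and AT1G71780 were like THI2.1. For AT1G54020 they were AT1G65720 (0.96), AT3G48550 (0.93) and THIC (0.93), none of them among its 5 above. With group means removed the genes themselves gave an r of 0.36 (THI2.1 and JAL23), 0.73 (THI2.1 and AT1G54020) and 0.59 (JAL23 and AT1G54020). Each group of 2 arrays then leaves 2 mirrored values, and wild-type replicates 1 and 2 were low for every gene, so few arrays weigh on these r. For THI2.1 and AT1G54020 r was 0.57 over the controls alone. AT1G54020 was also near the floor on the controls.

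Markers of tissues that the inflorescences could hold in different shares were read beside these results. Of 6 measured pollen genes 1, AGL104, passed the limma threshold in the quadruple mutant (log2 difference 1.57, adjusted p = 0.028), where 1.94% of kept probe sets were called higher, with 6.39 on replicate 1 and 5.36 on replicate 2. This call ended without quadruple mutant replicate 1 or wild-type replicate 3. AGL66 (1.38, limma adjusted p = 0.054) and PLIM2b (0.97, adjusted p = 0.16) were also higher in the quadruple mutant without passing. There 3 of the 6 had an unadjusted limma p under 0.05, against 21.3%, and 5 differences were positive and 1 negative. Levels were summed before logs were taken, so the genes brightest on the controls, ACT11 and TUA1, weigh most. The summed level of the 6 pollen genes ran from 9.27 to 9.95 on the controls, 9.69 to 10.46 in the quadruple mutant and 9.49 to 9.73 in amiR-NGA (log2). For the 2 tapetum genes it ran from 11.78 to 12.49, 11.62 to 12.26 and 12.09 to 12.18 in the same order, and for the 3 gynoecium genes from 7.20 to 7.43, 7.07 to 7.50 and 7.31 to 7.38. The 4 leaf genes summed to 14.19 to 14.56 on the controls, 13.80 to 13.93 in the quadruple mutant and 13.63 to 13.64 in amiR-NGA, without overlap, and 3 of the 4 (HPR, LHCB4.2 and RCA) fell in the nga-deficient comparison, against 3.09% of kept probe sets, although RCA did not pass once wild-type replicate 3, 4, 5 or 6, or an nga-deficient array, was left out. Of the gynoecium genes INO, a gene of the ovule's outer integument, rose by 0.86 (limma adjusted p = 0.0059), and SPT and SHI did not pass. The part of these tissues in the values of THI2.1, JAL23 and AT1G54020 was not tested.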

How the data were processed

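RNA of 11 inflorescence samples was hybridised to ATH1 arrays. The deposited values are log2 expression values made by the authors with GC-RMA in R 2.7.2 with Bioconductor 2.2, per the labels' processing notes and the series design text; further settings were not found in the labels. GC-RMA pulls dim probe sets to a floor. Of 22810 probe sets, 64 controls were left out and 17910 were kept for reaching a log2 value of 4 on 4 or more arrays. Gene names came from the platform annotation, which gives 1 gene for 13513 probe sets, several for 503 and none for 8730; 13436 matched RefSeq (TAIR10.1) by gene number. Its gene table holds no descriptions, so family lists used symbols and synonyms.

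Differences came from limma 3.58.1 (lmFit, eBayes; R 4.3.3), two-sided. P-values were adjusted by Benjamini and Hochberg's method across all 17910, and 0.05 was the threshold. The nga-deficient comparison used 2 groups, and the genotype comparisons 1 fit of 3 groups. The fit was tested on simulated data. Correlations over the controls used exact permutation of 7 arrays. With 11 arrays, precision is limited by their number.

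The 3 genes and all lists were chosen with earlier results of these data known; the GDSL list was added after the annotation was seen. Named list genes were the kept ones of the jasmonate lists and families. A list of salicylate and other defence genes had 0 of 9 entries on a probe set of 1 gene, and a list by the word jasmonate in RefSeq names held JMT and JRG21 alone. Where several probe sets name a gene, the brightest was used. Alternatives covered the filter, scaling, eBayes settings, array weights, a replicate block, the controls used, a 2-fold threshold and leaving out each array.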

Additional observations from a re-analysis of the deposited data

Results flagged for a closer look

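Of 88 sets of values checked (44 genes, on the arrays labelled wild type and on the nga-deficient arrays), 4 held an array far from the others by Dixon's criterion, and chance alone gives about 5%. JMT measured 5.78 on wild-type replicate 1 against 7.05 to 7.39 on the other controls. AT5G05600 measured 7.54 on quadruple mutant replicate 1 against 5.39 to 5.74 on the other nga-deficient arrays. ACT11, a pollen actin gene, measured 9.27 on the same array against 8.49 to 8.60. AT1G54050 measured 5.95 on wild-type replicate 2 against 6.47 to 6.81 on the other controls. These 3 arrays are those of high actin difference. THI2.1, JAL23 and AT1G54020 were not among the 4, although THI2.1 was 10.81 on quadruple mutant replicate 1.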

How the results depend on the processing

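Differences were counted as moved when they shifted by more than the residual SD of the fit, and counts when they changed by over 1.5 times. Differences of the 3 genes by the long-days note were instead counted as the same unless their sign or their call at the threshold changed. Smaller shifts, such as AT1G54020 from 2.18 to 1.29 (nga-deficient) with array weights, are not counted. By these measures 229 alternative values did not move, 45 moved and 1 reversed. With 1 array left out the numbers were 259, 31 and 2. Replicate numbers 1 and 2 alone are shared by the groups, so they give no pairing. The replicate block rests on wild-type replicates 1 and 2, which are low for all 3 genes: the nga-deficient, quadruple mutant and amiR-NGA differences were then 2.61, 3.01 and 2.21 for THI2.1 and 3.55, 3.74 and 3.35 for JAL23, and for AT1G54020 3.86 in the quadruple mutant and 1.09 in amiR-NGA. Without the 3 arrays of high actin difference, THI2.1 gave 0.84 in the quadruple mutant and -0.20 between the genotypes, and AT1G54020 gave 3.15 and 2.47. The cause of these moves was not tested.

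With 1 array left out, THI2.1 ran from 1.31 to 1.98 (nga-deficient), 1.17 to 3.18 (quadruple mutant), 1.21 to 1.57 (amiR-NGA), -0.20 to 1.80 (between genotypes) and -0.97 to -0.29 (long-days note). JAL23 ran from 1.88 to 2.47, 2.08 to 2.67, 1.69 to 2.28, 0.25 to 0.53 and 0.27 to 1.66 in the same order. AT1G54020 ran from 1.62 to 2.65, 3.26 to 3.88, 0.73 to 0.85, 2.47 to 3.08 and -0.023 (without wild-type replicate 3) to 0.27.

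Counts of called probe sets depended on the setting. In the nga-deficient comparison they were 2977 with array weights, 187 at 2-fold or more, 229 with the controls of the long-days note, 141 with the others, 1932 with the replicate block, and 122 or 516 without wild-type replicates 1 to 4 or 5 to 7, both chosen after seeing the data. The quadruple mutant gave 378 at 2-fold or more, 204 and 132 by the note, 252 with the replicate block, 124 without the 3 arrays and 191 or 443 without those replicates. In amiR-NGA they were 1650 with array weights, 96 at 2-fold or more, 48 and 35 by the note, 859 with the replicate block, 420 without the 3 arrays and 43 or 78 without those replicates. Between the genotypes they were 45 with array weights, 13 and 12 by the note and 2 with the replicate block. For the note itself they were 446 with array weights and 1 without the 3 arrays. With 1 array left out they ran from 229 (without amiR-NGA replicate 1) to 973, 39 to 963, 5 to 212, 13 to 179 and 0 to 1 in the order above. Among the jasmonate genes the count that rose was 2 (nga-deficient) and 1 (amiR-NGA) with array weights, 1 and 1 without the 3 arrays, 1 with median centring and 1 with the replicate block (both nga-deficient), and 0 to 1 with 1 array left out in each of these and the genotype comparisons; the count that fell in the quadruple mutant was also 0 to 1. GC-RMA's floor limits what AT1G54020 can show on the controls.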
